A study of Homo sapiens with 22 samples.

Results

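The 9 genes described here encode PU.1 (gene symbol SPI1) and 8 interferon regulatory factors (IRF1, IRF2, IRF3, IRF4, IRF5, IRF7, IRF8 and IRF9). They were taken by symbol from the deposited table of 60240 genes, in which each symbol matched 1 row, and all 9 had enough counts to be tested. The cells were haematopoietic progenitors grown out of the widely used human embryonic stem cell line H1, and their polyA-selected RNA was sequenced. Neutrophil, mast-cell, basophil and eosinophil markers rose over the culture, as given below, so this name may not describe the later groups. In the DOX groups, doxycycline drove ectopic expression of the transcription factor MYC, which the study sets in the context of blocked differentiation and transformation in acute myeloid leukaemia. The UT groups had no doxycycline. UT was sampled every other day from day 10 to day 20 of culture and DOX from day 12, with 2 libraries in each of the 11 groups (22 in all, 12 UT and 10 DOX). The titles gave all libraries 1 line name, and no group had doxycycline without ectopic MYC, so an effect of doxycycline itself cannot be told apart from one of MYC. The labels do not say that replicates were separate cultures, and p-values therefore cover only how these libraries vary, which may be technical.

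PU.1 is an ETS-family transcription factor that sets up and maintains the myeloid and B-lymphoid programmes, and its balance with the erythroid factor GATA1 is a textbook example of a lineage choice. Interferon regulatory factors share a DNA-binding domain that reads GAAA-type repeats. IRF8 and IRF4 bind DNA poorly alone and join PU.1 on composite ETS-IRF elements. IRF3, IRF5 and IRF7 lie dormant until sensors of nucleic acids or Toll-like receptors switch them on. IRF9 is the DNA-binding subunit of ISGF3, a complex that acts below the type I interferon receptor. IRF1 is a short-lived activator induced by interferons, and IRF2 competes with it for the same elements.

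Libraries held 24730517 to 53508590 counts. Levels are depth-scaled counts (CPM) adjusted by TMM, which centres libraries on the typical gene. The share of counts from mitochondrially encoded genes rose with culture, from 8.92% ± 0.585 (SD, n = 2) in UT on day 10 to 72.7% ± 0.332 on day 20, and in DOX from 11.3% ± 1.28 on day 12 to 57.0% ± 2.43 on day 20. On days 16 and 18 it was 54.7% ± 1.71 and 59.7% ± 4.41 in UT against 20.2% ± 1.05 and 36.7% ± 0.263 in DOX. Each fold change below is therefore relative to the typical gene: scaling by library totals alone moved the median gene in DOX against UT, averaged over days 12 to 20, from 0.08 to 0.60 on the log2 scale. Once mitochondrial genes were removed, library totals gave a median of 0.16. MYC stood at 237 ± 6.81 CPM in DOX against 123 ± 4.08 in UT on day 12, and at 39.2 ± 14.7 against 31.7 ± 4.16 on day 20. Of the 7 progenitor markers, all were tested, and 1 was higher and 3 lower in DOX averaged over days 12 to 20. Over all genes, 29.8% were higher and 23.0% lower. Their summed level lay between 712 and 1179 CPM over the 11 groups, with SPN alone at 447 to 771 CPM. That sum was higher in DOX than in UT on day 16 (930 against 784 CPM). It was lower in DOX on days 12, 14, 18 and 20 (777 against 1179 on day 20). The stem and progenitor markers CD34 and KIT went from 109 and 96.3 CPM in UT on day 10 to 5.05 and 4.66 on day 20. The sum of all 7 progenitor markers did not fall with them, at 1033 ± 16.6 CPM in UT on day 10 and 1179 ± 169 on day 20. Over the same days the summed mast-cell, basophil and eosinophil markers rose in UT from 30.9 to 22373 CPM. The B-cell and plasma-cell list summed to 1.01 to 3.92 CPM, with MS4A1 and TNFRSF17 at 0 counts. T-cell markers CD3D, CD3E, CD3G and CD8A were below 1 CPM in every group, while the T- and NK-cell list, mostly NKG7, summed to 5.30 to 33.7 CPM in UT groups and 4.04 to 24.9 in DOX groups. The plasmacytoid dendritic markers CLEC4C, LILRA4, TCL1A and GZMB were below 1 CPM in every group, while that list, mostly IL3RA, summed to 10.1 to 35.3 CPM in UT and 8.73 to 14.1 in DOX.

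Averaged over days 12 to 20, 8 of the 9 genes were lower in DOX than in UT and 1 was higher. The largest falls were those of IRF7, by 1.14 on the log2 scale (2.20-fold lower), and of IRF9, by 0.93 (1.91-fold lower). IRF1, IRF8, IRF4, IRF5, SPI1 and IRF3 fell by 0.79, 0.78, 0.68, 0.60, 0.51 and 0.32. IRF2, the competitor of IRF1, was higher by 0.26. In edgeR's quasi-likelihood test, 52.9% of all 20115 genes tested passed a Benjamini-Hochberg adjusted p of 0.05, 29.8% higher and 23.0% lower. The median of the 9 log2 changes was -0.68, beside 0.08 over all genes. With library totals as the only scaling, SPI1 (0.03) and IRF3 (0.21) turned positive. Of the 9, 5 were then called, 2 higher and 3 lower, beside 11581 higher and 1609 lower of all 20115 genes. After removal of mitochondrial genes library totals gave 1 higher and 8 lower again, beside 7092 higher and 3781 lower over all genes.

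**Figure D1:**
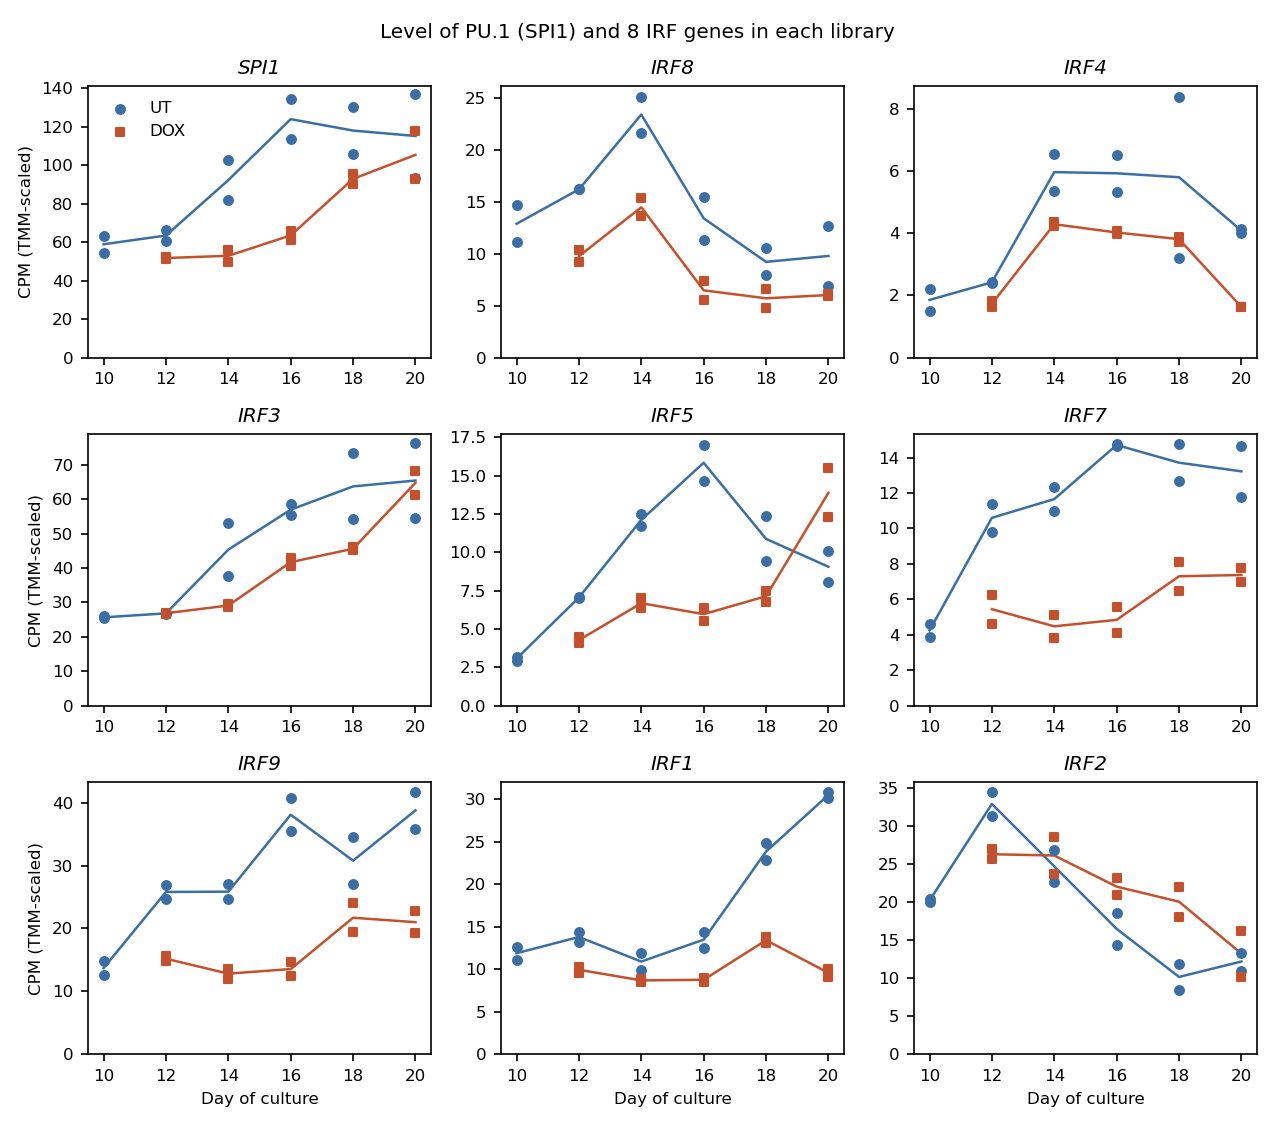
Level of each of the 9 genes (vertical axis, CPM scaled by TMM) against day of culture (horizontal axis); each point is 1 library (circles UT, squares DOX), and lines join group means of 2 libraries. DOX libraries lie below both UT libraries of the same day on all 5 days for IRF1, IRF7, IRF8 and IRF9. IRF2 lies above UT on days 16 and 18, and SPI1 and IRF3 meet UT on day 20. How many of all genes separate in this way was not counted.

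SPI1 (ENSG00000066336.12, chr11:47354860-47378576, minus strand, GRCh38 with GENCODE 29) was the most abundant of the 9 per kilobase of transcript in all 11 groups, at 36.9 to 88.3 CPM per kilobase. Its 2 UT libraries read 63.2 and 54.6 CPM (day 10), 66.3 and 60.6 (day 12), 102 and 82.0 (day 14), 134 and 114 (day 16), 130 and 106 (day 18), and 137 and 93.6 (day 20). In DOX they read 52.4 and 51.1 (day 12), 56.2 and 49.7 (day 14), 65.8 and 61.3 (day 16), 95.4 and 90.4 (day 18), and 118 and 93.0 (day 20). UT thus had its step up between days 12 and 16, while DOX stayed near the UT day-10 level until day 16 and rose afterwards. Every DOX library lay below both UT libraries on days 12 to 18, and the arms overlapped on day 20. The share of all genes that separate like this was not counted, for SPI1 or for the genes below. The averaged log2 difference was -0.51 (SE 0.08, adjusted p = 1.9e-05, edgeR), and days 14 (-0.80, adjusted p = 0.0018) and 16 (-0.96, adjusted p = 0.00022) were called singly. The 1.95-fold gap of day 16 was followed by 1.09-fold on day 20 (adjusted p = 0.63). In these bulk samples, fewer cells of a type and less RNA per cell cannot be told apart.

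IRF8 (ENSG00000140968.11, chr16:85898803-85922609, plus strand), the partner of PU.1 in monocyte and dendritic-cell development, peaked on day 14 in both arms. UT libraries read 14.7 and 11.1 CPM (day 10), 16.2 and 16.2 (day 12), 21.7 and 25.1 (day 14), 11.4 and 15.5 (day 16), 7.93 and 10.5 (day 18), and 6.92 and 12.7 (day 20). DOX libraries read 10.4 and 9.18, 15.4 and 13.6, 7.36 and 5.60, 6.60 and 4.82, and 5.97 and 6.09 on days 12 to 20. DOX was below UT on all 5 days without overlap. IRF8 differed by -0.78 averaged (SE 0.11, adjusted p = 1.1e-05), was called on days 14, 16 and 18, and was not called on days 12 (-0.73, adjusted p = 0.12) and 20 (-0.71, adjusted p = 0.058). The gap showed no change over the days that the test could call (adjusted p = 0.86).

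IRF4 (ENSG00000137265.15, chr6:391739-411447, plus strand), which acts with PU.1 in lymphoid and some dendritic cells, was the scarcest of the 9 per kilobase in every group (0.306 to 1.12 CPM per kilobase). UT libraries read 2.21 and 1.51 CPM (day 10), 2.43 and 2.42 (day 12), 6.57 and 5.38 (day 14), 6.52 and 5.35 (day 16), 8.40 and 3.21 (day 18), and 4.15 and 4.02 (day 20). DOX libraries read 1.65 and 1.83, 4.36 and 4.23, 4.06 and 3.99, 3.73 and 3.90, and 1.64 and 1.63. DOX lay below UT on 4 days, with overlap on day 18, when the 2 UT libraries were far apart. The averaged difference was -0.68 (SE 0.15, adjusted p = 0.00064), with day 20 (-1.32, adjusted p = 0.011) as the only day called. Without DOX day-20 replicate 1, IRF4 gave -1.32 on day 20 with adjusted p = 0.064. Leaving out UT day-18 replicate 2 gave a call on day 18 too (-1.12, adjusted p = 0.0042), where the fit without UT day-18 replicate 1 gave 0.25.

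IRF3 (ENSG00000126456.16, chr19:49659569-49665875, minus strand), the widely expressed sensor-activated factor, stood second to SPI1 per kilobase in all 11 groups. UT libraries read 25.4 and 26.0 CPM (day 10), 26.7 and 27.0 (day 12), 37.7 and 52.9 (day 14), 55.3 and 58.5 (day 16), 73.2 and 54.1 (day 18), and 76.3 and 54.5 (day 20). DOX libraries read 26.7 and 27.0, 28.8 and 29.5, 40.6 and 42.8, 45.2 and 46.0, and 61.2 and 68.2. The arms overlapped on days 12 and 20, and DOX was below UT on the 3 days between. The averaged difference of IRF3 was -0.32 (SE 0.07, adjusted p = 0.0015). It was -0.64 (day 14), -0.45 (day 16) and -0.48 (day 18), all called, and was 0.00 (day 12) and -0.01 (day 20). Exons of IRF3 share 734 bases with the antisense gene BCL2L12, and the strand setting of the counting was not given in the sources used here, so reads of the pair may be mixed.

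IRF5 (ENSG00000128604.20, chr7:128937612-128950035, plus strand) drives inflammatory cytokine genes in macrophages and had a crossing course. UT libraries read 3.19 and 2.95 CPM (day 10), 7.05 and 7.07 (day 12), 12.5 and 11.7 (day 14), 14.7 and 17.0 (day 16), 9.41 and 12.3 (day 18), and 10.1 and 8.04 (day 20). DOX libraries read 4.47 and 4.09, 7.02 and 6.36, 6.40 and 5.55, 6.78 and 7.51, and 15.5 and 12.3. DOX lay below UT on days 12 to 18 and above it on day 20, with no overlap on any day. The difference was -1.41 on day 16 (2.65-fold lower, adjusted p = 1.0e-05) and 0.62 on day 20 (adjusted p = 0.023). The change of the difference from day 12 to day 20 was itself called (1.34, SE 0.27, adjusted p = 0.0035). Leaving out UT day-20 replicate 2 or DOX day-20 replicate 1 brought the last day to 0.45 to 0.47, no longer called (adjusted p = 0.17 to 0.19).

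IRF7 (ENSG00000185507.21, chr11:612553-615999, minus strand), the amplifier of type I interferon production and itself an interferon-induced gene, had the largest averaged difference of the 9. UT libraries read 4.63 and 3.88 CPM (day 10), 11.4 and 9.81 (day 12), 12.3 and 10.97 (day 14), 14.8 and 14.6 (day 16), 12.7 and 14.7 (day 18), and 14.6 and 11.8 (day 20). DOX libraries read 6.27 and 4.63, 5.12 and 3.85, 5.60 and 4.10, 8.11 and 6.50, and 6.99 and 7.77. The UT level rose in its first interval, and no DOX library reached the lowest UT library of days 12 to 20 (9.81 CPM). IRF7 was -1.14 averaged (SE 0.10, adjusted p = 2.0e-08) and was called on all 5 days, with the largest difference on day 16 (-1.60, 3.03-fold lower, adjusted p = 1.5e-05).

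IRF9 (ENSG00000213928.9, chr14:24161053-24166565, plus strand), the DNA-binding subunit of ISGF3, followed the same order of libraries. UT read 14.8 and 12.6 CPM (day 10), 26.9 and 24.6 (day 12), 27.1 and 24.6 (day 14), 40.7 and 35.5 (day 16), 34.5 and 27.0 (day 18), and 41.7 and 35.8 (day 20). DOX read 15.6 and 14.8, 13.6 and 12.0, 14.6 and 12.5, 19.4 and 24.0, and 19.2 and 22.8. DOX libraries stayed at the UT day-10 level to day 16, and every DOX library was below every UT library of days 12 to 20. IRF9 was -0.93 averaged (SE 0.07, adjusted p = 5.6e-09) and was called on all 5 days, from -1.49 on day 16 to -0.50 on day 18. Its exons share 1838 bases with AL136295.5 on the same strand, to which 3219 counts were assigned in all libraries against 18914 for IRF9, so the split between them is uncertain.

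IRF1 (ENSG00000125347.14, chr5:132481609-132490798, minus strand) separated most at the end of culture. UT libraries read 11.1 and 12.6 CPM (day 10), 13.2 and 14.3 (day 12), 11.9 and 9.88 (day 14), 12.6 and 14.4 (day 16), 22.9 and 24.8 (day 18), and 30.2 and 30.9 (day 20). DOX libraries read 9.56 and 10.3, 8.48 and 8.88, 8.98 and 8.52, 13.7 and 13.1, and 9.11 and 10.0. The late rise of UT had no counterpart of its size in DOX, which was below UT on all 5 days without overlap. IRF1 was -0.79 averaged (SE 0.07, adjusted p = 1.3e-08), not called on days 12 (-0.47, adjusted p = 0.087) and 14 (-0.33, adjusted p = 0.10), and -1.67 on day 20 (3.19-fold lower, adjusted p = 4.3e-07). The widening from day 12 to day 20 was called (-1.20, SE 0.21, adjusted p = 0.0011). Antisense genes C5orf56 (1716 shared exon bases, 842 counts) and AC116366.3 (469 shared bases, 13653 counts) overlap IRF1 (11153 counts), so its counts are uncertain where strand was not used.

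IRF2 (ENSG00000168310.11, chr4:184387713-184474580, minus strand) was the only gene of the 9 called higher in DOX averaged over days 12 to 20. UT libraries read 20.4 and 19.9 CPM (day 10), 31.3 and 34.4 (day 12), 26.8 and 22.6 (day 14), 18.5 and 14.4 (day 16), 11.9 and 8.37 (day 18), and 10.98 and 13.3 (day 20). DOX libraries read 25.6 and 26.9, 23.7 and 28.5, 20.9 and 23.1, 18.0 and 22.0, and 16.2 and 10.2. DOX lay below UT on day 12, above it on days 16 and 18, and overlapped it on days 14 and 20. Day 18 was the only day called (1.00 higher, SE 0.22, adjusted p = 0.0014). The averaged value of IRF2 (0.26, SE 0.09, adjusted p = 0.025) was not called with DESeq2 size factors, DESeq2 or a filter of 1 CPM in 4 libraries (adjusted p = 0.052 to 0.065), nor without UT day-16 replicate 2, UT day-18 replicate 2, DOX day-14 replicate 2, DOX day-18 replicate 2 or DOX day-20 replicate 1 (0.19 to 0.24). On days 12 and 14 alone IRF2 was -0.12 (adjusted p = 0.59).

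**Figure D2:**
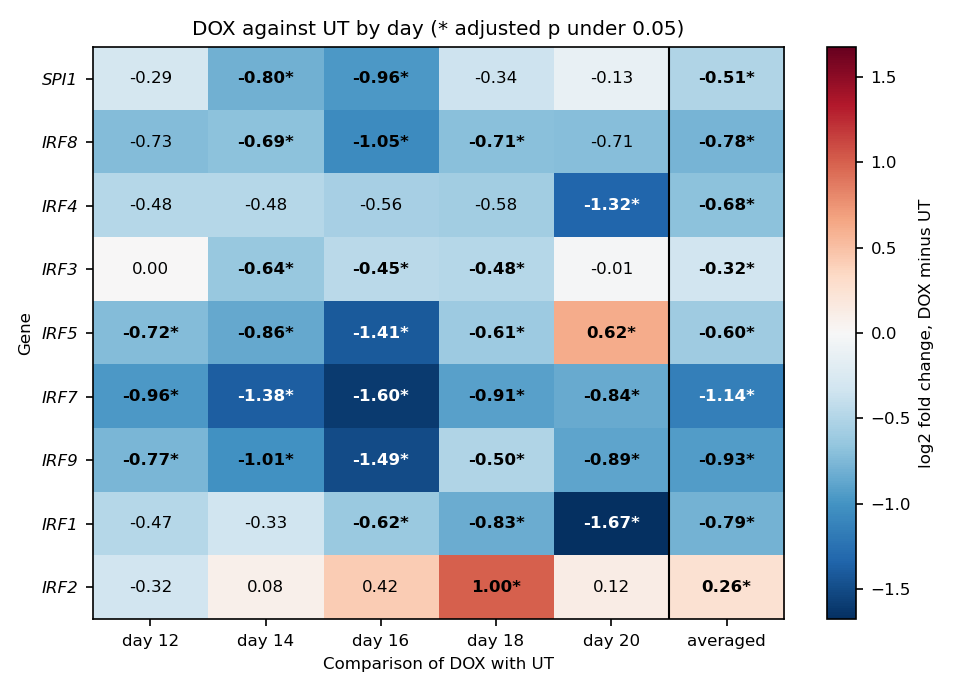
Log2 fold change of DOX against UT (colour scale, red higher and blue lower in DOX) for each gene (vertical axis) on each day and averaged over days 12 to 20 (horizontal axis); asterisks mark an adjusted p under 0.05 in edgeR. IRF7 and IRF9 are called lower on every day, relative to the typical gene; with library totals as the only scaling both turn to 0.00 or above on days 18 and 20.

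By day, 3, 6, 7, 7 and 5 of the 9 were called on days 12 to 20. On day 12, 3 were lower (IRF5, IRF7 and IRF9) and none of the 9 was higher, when 3.11% of all genes were called, 0.845% higher and 2.26% lower. On day 14, 6 were lower (SPI1, IRF3, IRF5, IRF7, IRF8 and IRF9), beside 27.0% of all genes called, 15.3% higher and 11.7% lower. On day 16, 7 were lower, all but IRF2 and IRF4, beside 39.9% of all genes, 21.2% higher and 18.7% lower. Every call among the 9 on these 3 days was in the lower direction, while over all genes higher calls outnumbered lower ones on days 14 and 16. On day 18, 6 were lower and IRF2 was higher, beside 35.8% of all genes, 19.8% higher and 16.0% lower. On day 20, IRF1, IRF4, IRF7 and IRF9 were lower and IRF5 was higher, beside 27.8% of all genes, 15.9% higher and 11.9% lower. Scaling by library totals alone moved the median gene to 0.93, 0.98 and 0.95 on days 16, 18 and 20 and turned the sign of IRF1, IRF3 and IRF4 on day 16, of SPI1, IRF4 and all 6 lower genes on day 18, and of SPI1, IRF3, IRF7, IRF8 and IRF9 on day 20.

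Several of the single-day calls needed every library of their day. The day-12 calls of IRF7 (-1.19 to -0.75, adjusted p up to 0.33) and IRF9 (-0.82 to -0.70, adjusted p up to 0.21) were lost when any 1 of the 4 day-12 libraries was left out, and that of IRF5 in 13 of 22 such fits (-0.78 to -0.65). The day-14 call of IRF8 was lost without any 1 of the 8 libraries of days 12 and 14 (-0.78 to -0.57), and that of IRF3 without UT replicate 2 or either DOX library of that day (-0.64 to -0.36). On day 16 the call of IRF3 was lost in 14 of 22 fits (-0.47 to -0.39). On day 18 calls were lost for IRF3 without UT replicate 1 or either DOX library (-0.48 to -0.24), IRF5 without UT replicate 2 or either DOX library (-0.68 to -0.38), IRF7 without DOX replicate 2 (-0.75), IRF8 in 10 of 22 fits (-0.70 to -0.47) and IRF9 without UT replicate 1 or DOX replicate 1 (-0.31). On day 20 the call of IRF7 was lost without UT replicate 1 or DOX replicate 1 (-0.76 to -0.67), while IRF8 was called without UT replicate 1 (-1.06, adjusted p = 0.0095) and was -0.19 without UT replicate 2 (adjusted p = 0.71). Averaged over the days, the 8 lower genes were called in all 22 fits with a library left out.

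On days 12 and 14 the mitochondrial shares of the arms lay closer, at 10.6% ± 0.441 and 13.7% ± 5.30 in UT and 11.3% ± 1.28 and 11.1% ± 2.96 in DOX. Over these days alone, SPI1 (-0.55), IRF1 (-0.40), IRF5 (-0.79), IRF7 (-1.17), IRF8 (-0.71) and IRF9 (-0.89) were called lower. IRF3 (-0.32, adjusted p = 0.054), IRF4 (-0.48, adjusted p = 0.13) and IRF2 (-0.12) were not called. Of all genes, 25.1% were called on these days, 14.2% higher and 10.8% lower. Over days 16, 18 and 20 alone, 8 of the 9 were lower and IRF2 was higher (0.51, adjusted p = 0.0018), beside 53.2% of all genes, 29.5% higher and 23.7% lower.

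Within UT, 7 of the 9 rose from day 10 to day 20 relative to the typical gene, 1 fell and 1 was not called. IRF7 rose by 1.63, IRF5 by 1.56, IRF9 by 1.50, IRF1 by 1.36, IRF3 by 1.35, IRF4 by 1.13 and SPI1 by 0.97 on the log2 scale. IRF2 fell by 0.73 (adjusted p = 0.0069), and IRF8 was -0.39 (adjusted p = 0.19). Over all genes, 62.3% were called, 28.1% higher and 34.2% lower, and the median was -0.24, beside 1.35 for the 9. Library totals alone moved that median to -2.41 and turned all 7 rises negative (-1.20 to -0.54). With mitochondrial genes removed library totals gave 6 of the 9 higher and 2 lower. The shares of all genes under that scaling are not given here, so these counts are not set against them. The calls of IRF2 (-0.63 without UT day-20 replicate 1) and IRF4 (0.86 without UT day-10 replicate 2) were each lost without 1 library, and IRF8 was called without UT day-20 replicate 2 (-0.92, adjusted p = 0.013) and was -0.058 without UT day-20 replicate 1 (adjusted p = 0.87).

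Within DOX, fewer of the 9 rose. From day 12 to day 20, IRF5 rose by 1.70, IRF3 by 1.27, SPI1 by 1.03 and IRF9 by 0.47, while IRF2 fell by 0.99 and IRF8 by 0.70. IRF1 (-0.05, adjusted p = 0.77), IRF4 (-0.09, adjusted p = 0.84) and IRF7 (0.44, adjusted p = 0.097) were not called. Over all genes, 56.4% were called, 26.7% higher and 29.7% lower, with a median of -0.08, which library totals alone moved to -1.26, turning SPI1 (-0.15), IRF7 (-0.76) and IRF9 (-0.73) negative. The call of IRF9 was lost without either DOX day-12 library or DOX day-20 replicate 2 (0.31 to 0.48), and that of IRF8 without DOX day-12 replicate 1 or either DOX day-20 library (-0.74 to -0.63). The UT and DOX intervals start on different days, so these rises are given side by side only.

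A test of any difference between days called all 9 genes in UT, where 72.8% of all genes were called, and all 9 in DOX, where 59.8% were. In DOX the call of IRF1 was lost without DOX day-18 replicate 1 (adjusted p = 0.068) and that of IRF7 without DOX day-14 replicate 2, DOX day-18 replicate 1 or DOX day-20 replicate 2 (adjusted p = 0.056 to 0.10). Whether the DOX against UT difference itself changed over days 12 to 20 was called for 5 of the 9, beside 31.4% of all genes. These were IRF5 (adjusted p = 0.00036), IRF1 (adjusted p = 0.00076), IRF2 (adjusted p = 0.020), IRF9 (adjusted p = 0.025) and SPI1 (adjusted p = 0.041). The last of these was lost in 16 of 22 fits with a library left out (adjusted p = 0.051 to 0.11). For IRF2 it was lost without UT day-12 replicate 2, UT day-18 replicate 2, DOX day-12 replicate 1 or DOX day-18 replicate 2 (adjusted p = 0.058 to 0.075), and for IRF9 without UT day-16 replicate 1, DOX day-16 replicate 2 or DOX day-18 replicate 2 (adjusted p = 0.071 to 0.12). IRF3 (adjusted p = 0.10), IRF4 (0.52), IRF7 (0.18) and IRF8 (0.86) were not called. IRF3 was called without UT day-14 replicate 1, UT day-18 replicate 2 or UT day-20 replicate 1 (adjusted p = 0.026 to 0.045), and IRF4 without UT day-18 replicate 1 (adjusted p = 0.049). Between the first and last shared day alone, the change was called for IRF1 and IRF5, beside 8.96% of all genes, 5.62% towards DOX and 3.34% towards UT.

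Ratios between genes within a library, taken here with a prior count of 2, do not depend on how libraries are scaled against each other. The log2 ratio of SPI1 to GATA1, 2 mutually opposed lineage factors, rose in UT from -0.93 ± 0.15 (SD, n = 2) on day 10 to 0.26 ± 0.13 on day 14 and 1.44 ± 0.02 on day 16. In DOX it was -1.01 ± 0.04 (day 12), -0.84 ± 0.11 (day 14), -0.53 ± 0.19 (day 16) and 0.29 ± 0.13 (day 18), and on day 20 it stood at 1.39 ± 0.28 against 1.48 ± 0.51 in UT. SPI1 counts passed those of GATA1 by day 14 in UT and by day 18 in DOX, and the arms met on day 20. DOX minus UT over the 5 days was -0.90 (exact two-sided permutation test within days, p = 0.0018, adjusted p = 0.0027 over 3 ratios), and GATA1 itself was higher in DOX (0.40, SE 0.06, adjusted p = 7.4e-06, edgeR).

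The log2 ratio of the activator IRF1 to its competitor IRF2 was -0.76 ± 0.15 in UT (day 10), -1.25 ± 0.01 (day 12), -1.18 ± 0.02 (day 14), -0.28 ± 0.40 (day 16), 1.25 ± 0.44 (day 18) and 1.33 ± 0.17 (day 20). In DOX it was -1.40 ± 0.02, -1.58 ± 0.14, -1.32 ± 0.16, -0.57 ± 0.25 and -0.43 ± 0.57 on days 12 to 20. UT therefore changed from more IRF2 counts to more IRF1 counts after day 16, and DOX means stayed negative through day 20. The averaged difference was -1.04 (exact permutation p = 0.00026, the smallest the 7776 arrangements can give; adjusted p = 0.00077). The log2 ratio of IRF8 to IRF4 went from 2.72 ± 0.01 to 1.19 ± 0.65 in UT and from 2.46 ± 0.23 to 1.86 ± 0.03 in DOX between days 12 and 20. Its averaged difference was -0.11 (exact permutation p = 0.63) and was 0.07 without UT day-18 replicate 2.

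**Figure D3:**
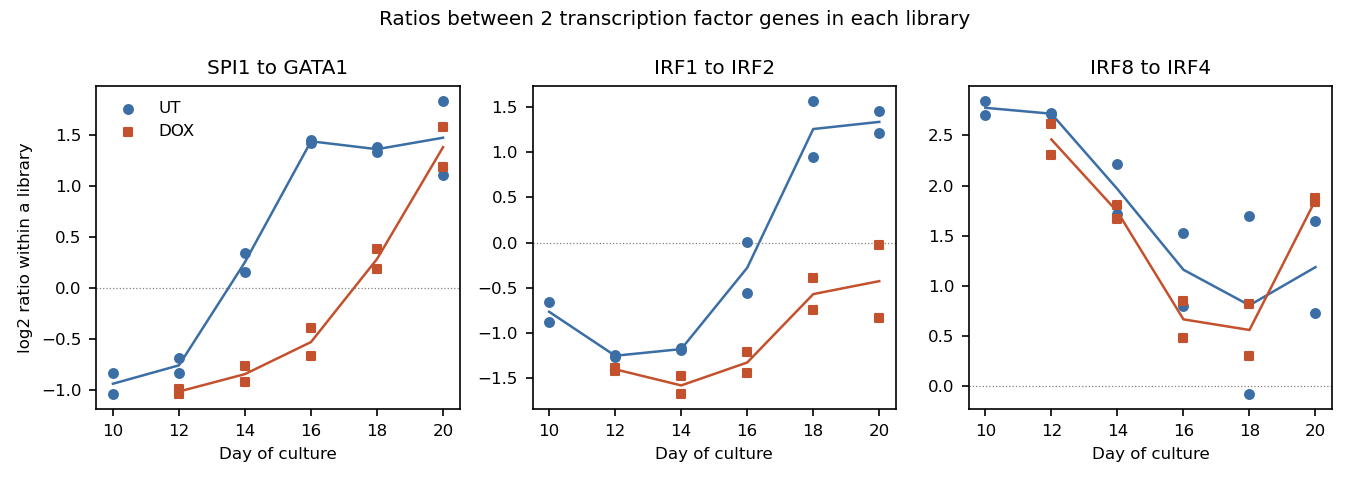
Log2 ratio of the counts of 2 genes within each library (vertical axis) against day of culture (horizontal axis); each point is 1 library (circles UT, squares DOX), lines join group means, and the dotted line marks equal counts. SPI1 to GATA1 meets between the arms on day 20, while IRF1 to IRF2 separates most on days 18 and 20.

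Genes around the 9 were described with lists written from textbook knowledge. In the averaged comparison 23.0% of all genes were lower. Of 21 PU.1 target genes of myeloid cells that were tested, 19 were lower, 1 (BTK) was higher and 1 was not called, with a median of -0.78. ITGAM, the CD11b integrin chain, was -1.87 (SE 0.10, adjusted p = 8.5e-11). CYBB, the catalytic subunit of the phagocyte oxidase, was -1.67 (SE 0.06, adjusted p = 4.4e-13) and stood at 161 CPM in DOX on day 20 against 637 in UT. CSF2RA, a receptor chain for GM-CSF, was -1.48. Of 15 targets of IRF8 or of composite ETS-IRF elements, 12 were lower and 2 higher (NF1 and FANCF), with a median of -0.53. Among them were TNFSF13B (BAFF) at -1.22, NLRC4 at -0.94, the MHC class II regulator CIITA at -0.88 and the protease CTSS at -0.84, while the abundant CTSC was -0.10 (adjusted p = 0.22). With library totals alone the PU.1 list gave 10 lower and 2 higher and the IRF8 list 4 lower and 5 higher. Over all 20115 genes that scaling gave 1609 lower and 11581 higher.

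Most monocyte, granulocyte, mast-cell and classical dendritic markers were lower in DOX, as in these lists, whereas most erythroid and megakaryocyte markers were higher. Of all genes, 23.0% were lower and 29.8% higher. Monocyte and macrophage markers (5 of 6 tested lower) summed to 82.6 to 214 CPM in UT groups and 57.7 to 147 in DOX groups, and neutrophil markers (7 of 7 lower) to 593 to 3586 and 840 to 1949. Mast-cell, basophil and eosinophil markers (6 of 7 lower) summed to 30.9 to 30241 CPM in UT and 281 to 11152 in DOX. The UT ranges include day 10, which DOX lacks, and each of these sums was lower in DOX on every shared day. On day 12 they were 138 against 214 CPM in UT (monocyte and macrophage), 840 against 1370 (neutrophil) and 281 against 890. Averaged over the days, 6 of 7 erythroid and 6 of 6 megakaryocyte markers were higher in DOX. Their sums were nonetheless lower in DOX on days 12 and 14, at 1518 and 912 CPM against 1692 and 1147 in UT (erythroid) and 2008 and 1659 against 3324 and 2542 (megakaryocyte), and higher from day 16, when they were 1041 against 408 and 1783 against 653. The classical dendritic markers XCR1 and FCER1A were at 0 counts and CLEC9A and CD1A below 1 CPM in every group, but the list of 7, mostly CD1C and CLEC10A, had 4 of 5 tested genes lower and summed to 34.9 CPM in UT against 15.4 in DOX on day 14 and to 27.4 against 13.2 on day 16. The part of these cell types in the levels of SPI1 and the IRF genes was not tested.

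Among 25 partners and antagonists of PU.1 and IRF factors, 16 were lower and 2 higher, GATA1 and ZEB2 (0.14, adjusted p = 0.0498), with a median of -0.42. Over all genes, 23.0% were lower and 29.8% higher, with a median of 0.08. GFI1, a repressor needed for neutrophils, was -1.02. MEF2C, the most abundant, was 0.04 (adjusted p = 0.78). Of the 5 tested relatives outside the 9, IRF2BP2, a co-repressor that binds IRF2, was -0.31 (adjusted p = 0.00027), the PU.1 relative SPIB was -0.93 (adjusted p = 0.0016) at a level below 1 CPM on average, and IRF2BP1 and IRF2BPL were among those not called. SPIC had 0 counts.

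In the machinery that switches on IRF3, IRF5 and IRF7, 9 of 22 genes were lower and 4 higher, with a median of -0.14, beside 23.0% of all genes lower and 29.8% higher. TASL, the adaptor through which endosomal Toll-like receptors activate IRF5, was -1.22 (SE 0.13, adjusted p = 2.5e-07), and its transporter partner SLC15A4 was 0.31 (adjusted p = 0.013). STING1, the cyclic-dinucleotide sensor, was -0.55, UNC93B1, which carries Toll-like receptors to endosomes, was -0.47, and MYD88 was -0.47. The kinases TBK1 (0.43) and IRAK1 (0.34) and the ligase TRAF6 (0.34) were higher, and MAVS was 0.07 (adjusted p = 0.34). With library totals alone UNC93B1 (0.07) and MYD88 (0.07) turned positive.

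No interferon gene could be tested. Of 21 interferon genes, 16 had 0 counts in all 22 libraries, and the largest of the others, IFNB1, had 31 counts over all libraries together. Of 16 receptor and JAK-STAT genes, 8 were lower and 2 higher (IFNGR1 and JAK2), with a median of -0.18. The shares over all genes were 23.0% lower and 29.8% higher, with a median of 0.08. SOCS1, a feedback inhibitor of JAK kinases, was -1.62 (SE 0.11, adjusted p = 9.7e-10), IL10RB, which is shared by interferon lambda and IL-10 receptors, was -1.04, SOCS3 was -0.84, the kinase TYK2 was -0.57 and the phosphatase PTPN6 was -0.44.

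Of 33 ISGF3 target genes, 21 were lower, 5 higher and 7 not called, with a median of -0.47. In this averaged comparison 23.0% of all genes were lower and 29.8% higher, with a median of 0.08. MX1, an antiviral GTPase, was -1.74 (SE 0.18, adjusted p = 2.5e-07). Its mean level in UT was 2.89 CPM (day 10), 19.5 (day 12), 17.2 (day 14) and 2.70 (day 20), and in DOX it stayed between 1.19 and 4.74. XAF1 was -2.00 and OAS1 -1.23. IFITM3, a membrane restriction factor and the most abundant of the list, went the other way (1.24, SE 0.10, adjusted p = 7.4e-09): it fell in UT from 106 to 7.39 CPM and stood at 90.3 in DOX on day 16 against 30.1 in UT. IFITM1 (0.80), DDX60 (0.79), IFIT5 (0.76) and UBE2L6 (0.47) were the other higher members. On days 12 and 14 alone, when IRF9 was -0.89, 19 of the 33 were lower and 2 higher, with a median of -0.80 beside 0.01 over all genes, of which 10.8% were lower and 14.2% higher.

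Of 19 IRF1 target genes tested, 8 were lower and 3 higher, with a median of -0.23. All genes gave 23.0% lower and 29.8% higher, with a median of 0.08. CASP1 (caspase 1) was -1.29, the peptide-loading factor TAPBP -0.62, GBP2 -0.42 and GBP4 -0.29, and B2M, the most abundant, was 0.07 (adjusted p = 0.36). GBP4 was 0.05 on days 16 to 20 alone, and its averaged call was lost in 9 of 22 fits with a library left out (-0.36 to -0.17 over all 22). CXCL11 (1.94), TAP2 (0.26) and WARS1 (0.18) were higher, CXCL11 at a low level. With library totals alone 3 of the IRF1 list were lower and 8 higher, and 8 of the ISGF3 list were lower and 12 higher. All genes then gave 1609 lower and 11581 higher. With mitochondrial genes removed library totals gave 5 lower and 5 higher (IRF1 list), and 17 lower and 5 higher (ISGF3 list). All genes then gave 3781 lower and 7092 higher.

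**Figure D4:**
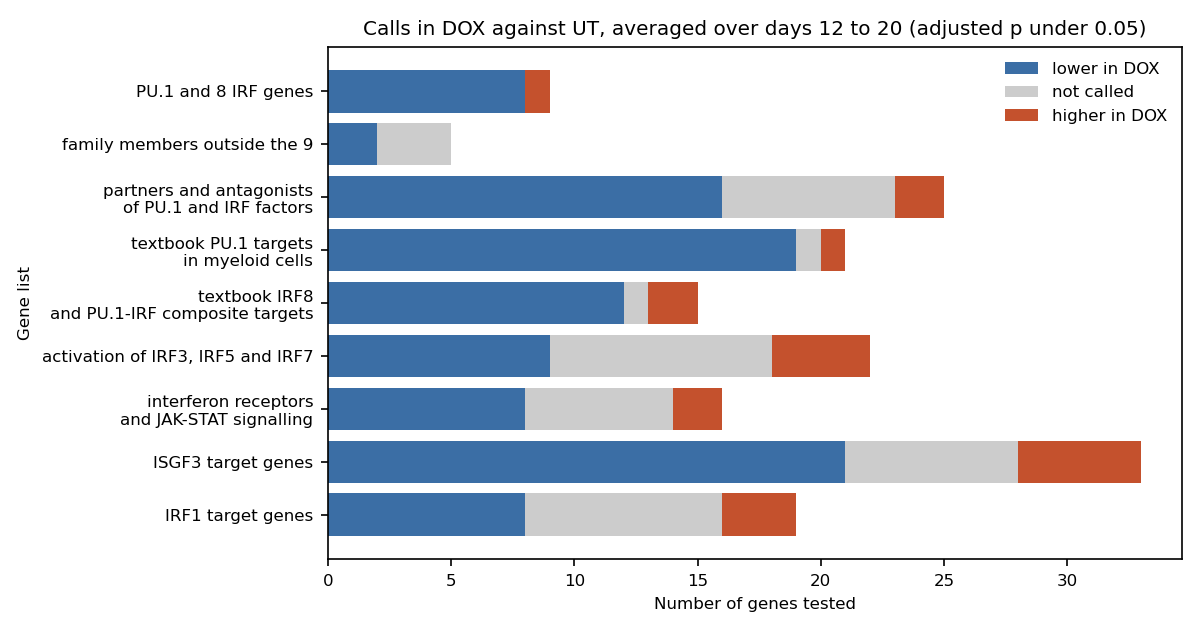
Number of tested genes in each list (horizontal axis, count; vertical axis, list) that were lower in DOX, higher in DOX or not called in the averaged comparison. The top bar shows the 9 genes themselves (8 lower). Among the other lists, lower calls are most frequent among PU.1 targets (19 of 21) and IRF8 or composite targets (12 of 15). Over all genes, 23.0% are lower and 29.8% higher. With library totals alone the PU.1 and IRF8 lists have 10 and 4 lower, when 1609 of all 20115 genes are called lower and 11581 higher.

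RefSeq promoter sequences (GRCh38.p14, 250 bases before the start) were at hand for 5 of the 9 genes, IRF1, IRF4, IRF5, IRF8 and IRF9, with 9 starts. They were searched on both strands for a pair of TTTC with any 2 bases between them (interferon-stimulated response element), GGAA and GAAA with any 2 bases between them (ETS-IRF composite), TTCNNNGAA (the STAT element GAS), CACGTG (the E-box that MYC and its partner MAX can bind) and GAGGAAGT (PU.1), the first of which shares letters with the composite. The shares of 35116 promoters of the same length holding them were 3.02%, 2.41%, 6.57%, 6.34% and 2.17%. Those shares are for 1 motif in 1 promoter, while all the motifs were searched at 9 starts, so a match somewhere is more likely than each share. IRF1, IRF5 and IRF9 held a match, and only stretches around matches are shown, with capitals marking the match. IRF4 and IRF8, which also differ between the arms, held none. STAT or IRF factors are known to act on such elements. IRF1 is chr5:132490799-132491023 (minus strand, upstream of the annotated exons), IRF5 is chr7:128940627-128940656 (plus strand) and IRF9 is chr14:24161184-24161213 (plus strand, inside annotated exons).
IRF1: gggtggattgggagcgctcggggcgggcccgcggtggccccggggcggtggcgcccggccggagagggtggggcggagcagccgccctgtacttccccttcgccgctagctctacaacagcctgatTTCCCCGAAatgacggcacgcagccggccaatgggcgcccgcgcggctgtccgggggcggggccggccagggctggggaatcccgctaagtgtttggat
IRF5: gtctagccacTTTCGTTTCCcctggggccg
IRF9: caactcagacCACGTGatTTCTGGGAAaag
In IRF1 the GAS match lies 124 to 116 bases before the start. In IRF5 the composite match, read on the other strand, lies 33 to 24 bases before 1 of its 4 starts. IRF9 holds an E-box 71 to 66 and a GAS match 63 to 55 bases before its start. These are letter matches and not measured binding.

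The courses of the 9 over the 11 groups were compared by Pearson correlation of log2 levels, given as a description over groups that share culture days. IRF7 and IRF9 were the most alike (0.98), each among the 3 genes most like the other of 10754 candidates, with the cytokine-signalling inhibitor CISH (0.98 and 0.97) in both sets. SPI1 ran with IRF3 (0.93) and against IRF2 (-0.78). SPI1 and IRF8, which act together on DNA, had -0.18 over all groups, -0.39 over the 6 UT groups and -0.80 over the 5 DOX groups. The 3 genes most like SPI1 were VPS9D1, HSPA6 and the histidine decarboxylase HDC (0.98 each), and those most like IRF2 were GFI1B, an erythroid and megakaryocytic repressor (0.98), ABHD4 (0.97) and SLC35D2 (0.97). KCTD12 (0.95) and ERRFI1 (0.94) were among the 3 most like IRF8, CCR7 (0.94), SDHAF2 (0.90) and EIF1AD (0.89) most like IRF4, and SLC22A15 (0.97), EFNA4 and LY86 (0.96 each) most like IRF5. IRF1 was closest to SLC9A3R1, TLCD2 and PALM (0.95 each) and IRF3 to CXXC1, TOR2A and BRMS1 (0.99 each). With rank correlation, 0 to 2 of the 3 were the same for each of the 9.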

How the data were processed

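PolyA-selected RNA was sequenced in 22 libraries. Per the submitters' processing notes, Trim Galore 0.6.5, STAR and Salmon were used with hg38. Annotation release, strand setting and the first day of doxycycline are not given in the sources used here. What the authors deposited are expected counts for each gene (reads estimated by Salmon, without normalisation). Of those above 0, 69.5% were whole numbers. They were rounded to whole numbers, and 0 columns were left unused. All samples carry a single batch label.

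Genes with enough counts (filterByExpr of edgeR 4.0.16, minimum count 10) numbered 20115 of 60240; 23698 had 0 counts everywhere. A single quasi-likelihood fit with TMM scaling and 1 coefficient for each of 11 groups (common coefficient of variation 0.184 on 11 residual degrees of freedom) gave all comparisons. A call is a Benjamini-Hochberg adjusted p under 0.05 over all genes tested. Standard errors came from the log2 fold change and its F statistic. Depth limits small differences most for IRF4, which had the fewest counts per kilobase. Ratios used a prior count of 2 and an exact two-sided permutation within days. Positions came from GENCODE 29 (GRCh38), which matched 58020 identifiers; levels per kilobase used the longest principal transcript. Promoter windows came from RefSeq.

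The members, gene lists and tests were chosen with earlier results of these data known, and the lists support nothing independently. The 9 members were always named. Each list gave up to 4 called genes with the largest change at an average log2 CPM of at least 1, plus its most abundant gene. Genes named to spell out a count of 5 or fewer were chosen after their values were seen. The 3 genes most like each member needed the same average level. A few genes that these rules name are not reported here. Alternatives were library sizes alone, DESeq2 size factors, absence of a filter, at least 1 CPM in 4 libraries, DESeq2 1.42.0, limma-voom 3.58.1, a replicate block, removal of mitochondrially encoded genes, a fit of only the groups compared, a prior count of 0.5 for the ratios, days 12 and 14 or 16 to 20 alone, and leaving out each library, whose lone partner was assumed to vary like other groups. Library sizes alone after removing mitochondrial genes was added after seeing the data. Fits were tested on simulated data. Software was Python 3.11.15 with pandas 2.3.3, numpy 2.4.6 and matplotlib 3.10.9, and R 4.3.3.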

Additional observations from a re-analysis of the deposited data

Results flagged for a closer look

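A change of the DOX against UT difference was called for 5 of the 9 genes in edgeR's test of any change over days 12 to 20, beside 31.4% of all genes. They were SPI1 (adjusted p = 0.0414), IRF1 (adjusted p = 0.000763), IRF2 (adjusted p = 0.0199), IRF5 (adjusted p = 0.000364) and IRF9 (adjusted p = 0.0249). The calls of SPI1, IRF2 and IRF9 did not hold in every fit with a library left out, as given above. From day 12 to day 20 the log2 difference changed by -1.20 for IRF1, with both DOX libraries further below both UT libraries on day 20. For IRF5, which passed from below UT to above it, the change was 1.34. Of all genes, 8.96% were called for this change. The mitochondrial share of counts differed between the arms most on days 16 to 18, and its part in these changes was not tested. Groups of 2 libraries were too small to look for single outlying libraries.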

How the results depend on the processing

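Averaged over days 12 to 20, the 8 lower members kept sign and call in all alternatives that used all 5 days, library sizes alone excepted, and in all 22 fits with a library left out. Fits with library sizes alone called 11446 genes on day 18, 11094 on day 20, 9541 for the change from day 12 to day 20 and 12049 for any change; higher against lower calls were 11581 and 1609 averaged, beside 6002 and 4633 with TMM. Under that scaling the averaged values of SPI1 (0.031), IRF3 (0.21), IRF2BP2 (0.23), CTSC (0.44), UNC93B1 (0.065), MYD88 (0.072), PTPN6 (0.094), GBP2 (0.12) and GBP4 (0.24) turned positive. So did IRF1 (0.31), IRF3 (0.48) and IRF4 (0.37) on day 16. On day 18 SPI1 (0.58), IRF1 (0.081), IRF3 (0.44), IRF4 (0.35), IRF5 (0.30), IRF7 (0.00018), IRF8 (0.21) and IRF9 (0.42) did, and on day 20 SPI1 (0.79), IRF3 (0.88), IRF7 (0.062), IRF8 (0.23) and IRF9 (0.014). The change from day 12 to day 20 turned for IRF3 (0.94), IRF4 (0.14) and IRF9 (0.84), the UT course for SPI1 (-1.20), IRF1 (-0.82), IRF3 (-0.82), IRF4 (-1.05), IRF5 (-0.62), IRF7 (-0.54) and IRF9 (-0.67), and the DOX course for SPI1 (-0.15), IRF7 (-0.76) and IRF9 (-0.73). With mitochondrial genes removed as well, CTSC (3.6e-05 averaged), SPI1 (0.13 on day 20), IRF3 (0.23 on day 20 and 0.28 for the change) and IRF9 (0.18 for the change) turned, and 2707 genes were called for the change; higher against lower calls averaged were 7092 and 3781.

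On day 12, 625 genes were called, against 940 without a filter, 1408 with DESeq2, 1530 with limma-voom and 4742 with only the groups compared. The last setting also gave 4780 on day 18, 2035 on day 20 and 1079 for the change, for which DESeq2 gave 2758. Days 12 and 14 alone gave 5039 calls, ratios of -0.68 (SPI1 to GATA1) and -0.28 (IRF1 to IRF2; adjusted p = 0.083 each, with 0.056 the smallest exact permutation p possible) and turned IRF2 (-0.12), MAVS (-0.13) and B2M (-0.33); days 16 to 20 alone turned MEF2C (-0.28), CTSC (0.071) and GBP4 (0.046). IRF3 on day 12 was near 0 throughout: -0.037 with DESeq2 size factors and with DESeq2, -0.036 with only the groups compared, -0.063 with library sizes alone, -0.051 with mitochondrial genes removed as well and -0.019 with the 1 CPM filter. Without a filter and with limma-voom, IRF3 was 0.010 and 0.011 on day 20, and 0.00033 and 0.0092 for the change. IRF8 for the change was -0.020 with DESeq2 size factors and with DESeq2, and -0.018 with the 1 CPM filter, which also gave IRF1 0.057 and IRF4 0.021 in the DOX course and MEF2C -0.010. The cause of these shifts was not tested.

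With a library left out, 56 to 754 genes were called on day 12 (56 without DOX day-12 replicate 2, 72 and 217 without UT day-12 replicates 1 and 2, 140 without DOX day-12 replicate 1), 2824 to 5914 on day 14 (2824 without DOX replicate 2 and 3590 without UT replicate 2), 3522 to 6067 on day 20 (3522 without DOX replicate 1) and 912 to 2372 for the change (912 to 974 without any 1 day-12 library, 1091 without DOX day-20 replicate 1). Signs turned within -0.046 to 0.22 for IRF2 on day 14, -0.25 to 0.42 for IRF2 on day 20, -0.0023 to 0.024 for IRF3 on day 12, -0.23 to 0.26 for IRF3 on day 20, -0.24 to 0.25 for IRF3 in the change, -1.12 to 0.25 for IRF4 on day 18, -0.082 to 0.36 for IRF7, -0.34 to 0.53 for IRF8, -0.24 to 0.00069 for IRF9 and -0.081 to 0.47 for SPI1 in the change, -0.37 to 0.18 for SPI1 on day 20, -0.0022 to 0.13 for MEF2C averaged and -0.29 to 0.067 for IRF8 to IRF4.

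Whether replicate numbers pair libraries is not clear from the data: same-numbered deviations correlated at -0.07 to 0.42 over 55 pairs of groups, above 0.1 in 24 but not in all, so the comparisons carry no block. A replicate block gave 950 calls on day 12 and called SPI1 on day 18 (-0.34, adjusted p = 0.028) and IRF7 in the DOX course (0.45, adjusted p = 0.049); it changed no other call of a member.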
